A study of Mus musculus with 14 samples.

Results

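Gamma-delta T cells and other innate-like lymphocytes are minor populations of the thymus, and 9 genes that mark or direct them were followed here through treatment with estradiol or with genistein. The genes were Trgv1 and Trgv4, variable segments of the T cell receptor gamma chain, the surface glycoprotein Cd7, the transcription factor Sox13, the inhibitors of E proteins Id2 and Id3, and the lymphocyte effector genes Il2rb, Klrd1 and Nkg7. They were taken by name, through every probe set annotated to 1 of them alone, which gave 14 probe sets, while 12393 genes in all had such a probe set. The genes were chosen by name with measured values in view, since Cd7 and Trgv1 had been selected on their higher signal on estradiol than in untreated mice. The values of estradiol against control are therefore given below as a description, without a test, as is every value of Cd7 and Trgv1.

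All mice were female C57BL/6, an inbred strain, and are described as 21 days old. Ovariectomy is given as day 26, a change to a diet free of plant estrogens as 2 days after it, and the start of treatment as day 30, without saying from when these days are counted. Controls were taken untreated on day 0 of treatment. The estradiol groups were injected under the skin each day with 125 ng of the hormone in 0.02 ml of corn oil. The genistein groups had genistein, a plant estrogen of soy, mixed into the same diet at 1500 ppm. Both treatments were sampled on days 2, 3 and 6, which made 7 groups of 2 arrays, each array holding thymus RNA of 3 pooled mice. The labels call the 2 pools of a group independent, and a p-value measures the spread between such pools. Untreated mice of later days and oil-injected mice were not analysed here, so treatment, injection, oil and elapsed days cannot be told apart in a comparison with control. Injection and oil cannot be told apart from the hormone in a comparison with genistein either.

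T cell precursors in the thymus choose between the alpha-beta and the gamma-delta lineage. Strong signals through a gamma-delta receptor induce Id3, which blocks E proteins, the helix-loop-helix factors that bind E boxes in DNA and maintain the early alpha-beta programme. Sox13 acts early in a subset of gamma-delta cells, above all those that use Trgv4. Id2, the beta chain of the receptors for interleukins 2 and 15 (Il2rb), the lectin receptor chain CD94 (Klrd1) and the granule protein Nkg7 are shared by natural killer cells, innate-like T cells and cytotoxic T cells. Estradiol is known to shrink the thymus, mainly by loss of immature alpha-beta thymocytes.

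Signals are arbitrary units of scanned brightness, and no signal of a probe set is set against that of another. The 3 estradiol arrays deposited at a higher overall brightness than the 11 others (day 2 replicate 2 and both of day 3, by 1.49, 2.00 and 2.23 times) were brought to the common level first. The 3' to 5' ratio of Gapdh, a measure of RNA integrity, ran from 0.867 to 1.10 on 12 arrays, with genistein day 6 replicate 1 at 1.503 and estradiol day 2 replicate 1 at 1.27. The array least like the rest was control replicate 2, whose mean correlation with them was 0.942. Of the 14 probe sets, 12 were bright enough to be tested and they covered all 9 genes. Since each array was scaled to the same brightness, a level is a share of thymus RNA, and more cells of a type cannot be told apart from more RNA per cell.

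Promoter sequence was at hand for 4 of the 9 genes (Id2, Id3, Nkg7 and Sox13; RefSeq, GRCm38.p6). The 250 bases before a RefSeq start site are shown for Nkg7 and Id3, because these were the 2 of the 4 whose estradiol arrays all lay on 1 side of both control arrays, Nkg7 above and Id3 below. Sequences run 5' to 3' along the gene, with E boxes (CANNTG on either strand) in capitals.
Nkg7, chr7:43436888-43437137, plus strand: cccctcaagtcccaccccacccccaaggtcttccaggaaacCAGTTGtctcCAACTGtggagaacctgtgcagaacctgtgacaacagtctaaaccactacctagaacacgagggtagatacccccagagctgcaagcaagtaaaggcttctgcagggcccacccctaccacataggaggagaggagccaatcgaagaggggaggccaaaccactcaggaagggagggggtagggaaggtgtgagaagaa
Id3, chr4:136143572-136143821, plus strand: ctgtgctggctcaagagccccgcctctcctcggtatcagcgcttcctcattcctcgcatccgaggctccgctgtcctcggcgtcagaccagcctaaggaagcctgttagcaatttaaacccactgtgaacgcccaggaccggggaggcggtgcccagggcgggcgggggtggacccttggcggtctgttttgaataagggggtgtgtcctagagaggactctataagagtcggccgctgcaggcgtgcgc
The Nkg7 window held 2 E boxes close together, the Id2 window 1, and those of Id3 and Sox13 held 0. The Sox13 window (chr1:133424213-133424462, minus strand) lies before a start site inside the gene, with 247 of its 250 bases in the annotated gene (chr1:133382300-133424459), while the other 3 windows end at the edge of theirs. Of 32851 RefSeq promoter windows of the same length, 66.2% held at least 1 E box. The full estrogen response element GGTCANNNTGACC, searched on both strands, was in none of the 4 windows and in 0.064% of all windows. Its single arm AGGTCA, which shares GGTCA with the full element, was also in none of the 4 and in 14.0% of all. These letters describe the windows only.

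Trgv1 and the most widely separated of the Trgv4 probe sets, 1450521_a_at, had higher signals on estradiol than on genistein or in controls. The probe set that represents Trgv4 by the rule of highest mean signal was another, 1422189_x_at. It did not pass between the treatments (0.34 ± 0.109, limma, adjusted p = 0.125). Trgv1 had signals of 180.3 and 183.4 in the controls. Estradiol arrays had 372.6 and 500.7 (day 2), 406.2 and 441.1 (day 3), and 633.9 and 652.5 (day 6). Genistein arrays of the same days had 197.3 and 226, 196.4 and 201.1, and 160.2 and 305.6. Every estradiol array thus lay above every control and every genistein array, and the genistein arrays lay slightly above the controls except on day 6, when 1 was below and 1 well above them. By group mean, estradiol day 6 stood highest (643.2 ± 13.15, SD, n = 2), followed by days 2 and 3 (436.6 ± 90.57 and 423.6 ± 24.66), which did not differ beyond their spread. The genistein groups (211.7 ± 20.29, 198.7 ± 3.326 and 232.9 ± 102.8) overlapped one another.

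On the log2(signal + 16) scale, on which all differences below are given, Trgv1 was 1.36 ± 0.184 (SE) higher on estradiol than in controls over the mean of the 3 days, a 2.56-fold difference, and 1.16 ± 0.130 higher than on genistein. At day 6 it stood 1.74 ± 0.225 above control and 1.47 ± 0.225 above genistein. Between estradiol days 2 and 6 its level differed by 0.56 ± 0.225. These are the values for which the gene was chosen, or share arrays with them, and they carry no test. The difference of genistein from control, 0.19 ± 0.184 with a 95% interval from -0.20 to 0.59, uses the control arrays of that choice and is a description too.

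Trgv4 had 3 probe sets, which did not behave alike. On the probe set 1450521_a_at the controls had signals of 372.5 and 391.4. The estradiol arrays had 731 and 968.5 (day 2), 606.2 and 744.2 (day 3) and 860.8 and 958.6 (day 6), and the genistein arrays 370 and 470.2, 383.9 and 335.1, and 390.8 and 471.8. As for Trgv1, the lowest estradiol array lay above the highest of the other groups. The difference between the treatments was 0.97 ± 0.102 over the mean of days (1.96-fold; limma, adjusted p = 0.000531), and 1.05 ± 0.176 at day 6 (limma, adjusted p = 0.0335). At days 2 and 3 it was of like size, 0.99 ± 0.176 and 0.88 ± 0.176, without passing (limma, adjusted p = 0.0649 and 0.247). The mean over days lost its call only when the deposited brightness was a term of the model (0.77, limma, adjusted p = 0.0561). The call at day 6 was lost without either estradiol day 6 array or without genistein day 6 replicate 1 (limma, adjusted p from 0.153 to 0.283), with only the groups compared (0.101), with the Gapdh ratio as a covariate (0.168) and on the values as deposited (0.194). Genistein did not differ detectably from control on this probe set (0.07 ± 0.144, limma, adjusted p = 0.892, 95% interval -0.24 to 0.38). Against control, estradiol stood 1.04 ± 0.144 higher over the mean of days.

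On the Trgv4 probe set 1422189_x_at the controls had signals of 472.9 and 439.9. Estradiol gave 765.8 and 888.1 (day 2), 594.1 and 435.6 (day 3), and 756.3 and 861.8 (day 6). Genistein gave 450.5 and 603, 605.9 and 539.5, and 475.3 and 628. Here the estradiol arrays of days 2 and 6 lay above all others, but those of day 3, both deposited brighter and rescaled, did not. One of them (594.1) lay within the genistein range, and the other (435.6) was the lowest of all 14 arrays, just under the lower control. The difference between the treatments over the mean of days was 0.34 ± 0.109 (limma, adjusted p = 0.125), and at day 3 it was -0.16 ± 0.189 (limma, adjusted p = 0.919). The third probe set, 1427802_a_at, was too dim to be tested, with signals from 8.7 to 68, and its 2 highest arrays were both of estradiol day 6 (65.7 and 68). The ending _x_at marks probes that also match other sequences. The positions of these probes were not available here, so signals of Trgv1 and Trgv4 may be shared. The test of Trgv4 may then not be independent of the value that singled out Trgv1.

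**Figure D1:**
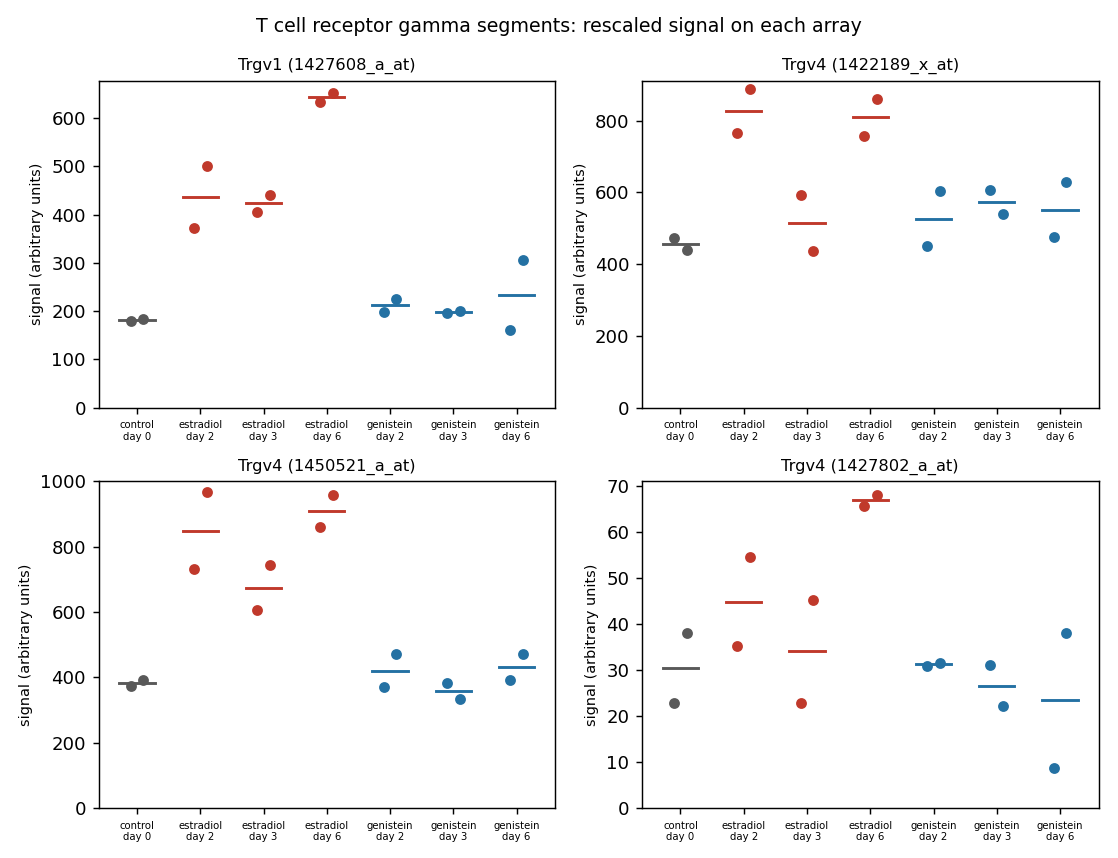
Rescaled signal (arbitrary units, linear axis from 0) of the probe set of Trgv1 and the 3 of Trgv4 on each of the 14 arrays, with a point per array and a bar at the mean of the 2 arrays of a group (grey control, red estradiol, blue genistein). On Trgv1 and on Trgv4 1450521_a_at all 6 estradiol points lie above all others, whereas on 1422189_x_at those of day 3 do not.

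Cd7, a surface protein of T and natural killer cells, was near the limit of measurement in untreated thymus. Its control signals were 5.7 and 14.5, below the pseudocount of 16. Estradiol arrays had 94 and 117.9 (day 2), 32.57 and 103 (day 3), and 137.2 and 130.6 (day 6). Genistein arrays had 6.3 and 5.9, 26.7 and 52.6, and 26 and 101.3 in the same order of days. All estradiol arrays were above both controls, the genistein arrays of day 2 were at the control level, and those of days 3 and 6 were above it but spread widely. Replicate 1 of estradiol days 2 and 3 lay below the highest genistein array. The group means ran from 133.9 ± 4.667 (estradiol day 6) through 106 ± 16.92 (estradiol day 2), 67.78 ± 49.79 (estradiol day 3), 63.65 ± 53.25 (genistein day 6) and 39.65 ± 18.31 (genistein day 3) to 10.1 ± 6.223 (control) and 6.1 ± 0.2828 (genistein day 2). The 3 groups in the middle overlapped. The lower array of estradiol day 2 (94) also lay within the ranges of estradiol day 3 and genistein day 6.

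Cd7 stood 2.11 ± 0.365 above control on estradiol over the mean of days and 1.35 ± 0.258 above genistein, given without a test. With a pseudocount of 64 these became 1.13 and 0.76, so their size is approximate. The difference between the treatments was 2.46 ± 0.447 at day 2, 0.49 ± 0.447 at day 3 and 1.09 ± 0.447 at day 6. Genistein stood 0.77 ± 0.365 from control over the mean of days, -0.22 ± 0.447 at day 2, 1.07 ± 0.447 at day 3 and 1.45 ± 0.447 at day 6, again without a test because the control arrays entered the choice of the gene. From day 2 to day 6 of genistein the difference was 1.67 ± 0.447, with both day 6 arrays above both day 2 arrays. It is given without a test too, because its SE rests on the spread of all groups, control and estradiol included. Cd7 only just reached the brightness needed for testing, at a mean log2 value of 5.92, and did so through its brighter treated arrays. A difference of those from control, or from the dim arrays of genistein day 2, was thus part of its being tested.

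The effector genes Nkg7, Klrd1 and Il2rb differed between the treatments by 0.28 to 0.43, higher on estradiol, and none passed. Nkg7, a protein of cytotoxic granules, had control signals of 112.9 and 145.2. Estradiol arrays had 189.9 and 204.7 (day 2), 179.8 and 233.4 (day 3), and 209.5 and 250.9 (day 6). Genistein arrays had 170.6 and 133.6, 116.7 and 187.2, and 145.6 and 170.1. The estradiol arrays lay above both controls, and 1 of them, at 179.8, lay below the highest genistein array, at 187.2. The difference between the treatments over the mean of days was 0.43 ± 0.125 (limma, unadjusted p = 0.00435, adjusted p = 0.103), and did not pass. Genistein against control gave 0.22 ± 0.177 (limma, adjusted p = 0.662), and estradiol stood 0.65 ± 0.177 above control.

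Klrd1, whose product CD94 pairs with NKG2 receptors, had unlike controls, 61.5 and 111.5. The estradiol arrays ran from 88.91 to 116.6 and the genistein arrays from 58.6 to 90.4. Only estradiol day 3 replicate 2, at 88.91, reached down into the genistein range. Its difference between treatments was 0.40 ± 0.124 (limma, unadjusted p = 0.00577, adjusted p = 0.117), largest at day 2 (0.60 ± 0.214, limma, adjusted p = 0.562), and genistein against control gave -0.13 ± 0.175 (limma, adjusted p = 0.807). Against control, estradiol gave 0.27 ± 0.175, which became -0.09 without control replicate 1 and 0.63 without control replicate 2.

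Il2rb had 2 probe sets. On 1448759_at the controls had 60 and 59.8, the estradiol arrays 110.2 and 148.4, 90.28 and 91.74, and 96.7 and 130.9, and the genistein arrays 71.7 and 87.8, 57.8 and 103.4, and 78.1 and 119.2. All estradiol arrays lay above both controls, and they overlapped the genistein arrays. The treatments differed by 0.32 ± 0.143 (limma, adjusted p = 0.266), and genistein stood 0.40 ± 0.203 from control (limma, adjusted p = 0.482). On 1417546_at the lowest estradiol array (73.54) barely exceeded the higher control (73.3), and the treatments differed by 0.28 ± 0.143 (limma, adjusted p = 0.342). Estradiol stood 0.73 ± 0.203 above control on the former and 0.38 ± 0.202 on the latter.

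**Figure D2:**
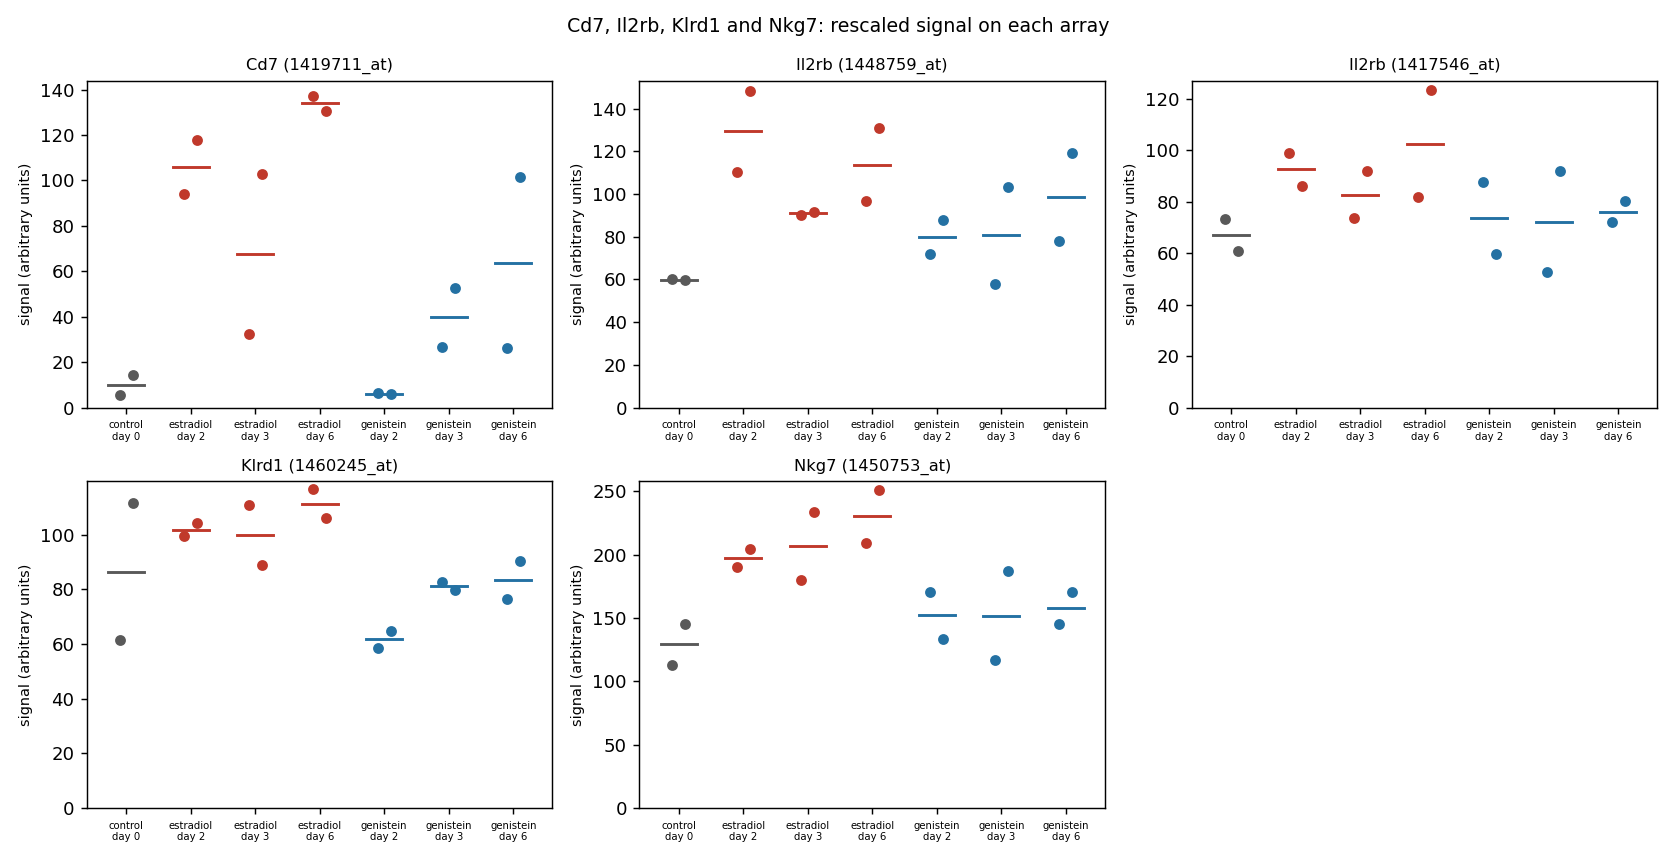
Rescaled signal (arbitrary units, linear axis from 0) of Cd7, the 2 probe sets of Il2rb, Klrd1 and Nkg7 on each array, with a point per array and a bar at the mean of each group's 2 arrays (grey control, red estradiol, blue genistein). Cd7 goes from 5.7 and 14.5 in controls to 137.2 and 130.6 at estradiol day 6. The points of every gene shown, Cd7 included, overlap between the treatments.

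The regulators Id3, Id2 and Sox13 did not pass any test. Id3 was the only member whose estradiol arrays all lay below both controls. The controls had signals of 352 and 440.6. Estradiol gave 308.6 and 309.8 (day 2), 342.1 and 319.1 (day 3), and 271 and 279.3 (day 6), and genistein 303.1 and 275.8, 410.7 and 327.7, and 350.2 and 313.6. Genistein thus overlapped the controls. Id3 stood -0.36 ± 0.127 from control on estradiol, and on genistein -0.25 ± 0.127 (limma, adjusted p = 0.479). The treatments differed by -0.10 ± 0.0895 over the mean of days (limma, adjusted p = 0.594), which turned to 0.34 on the values as deposited, where all probe sets together shifted by 0.42.

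Id2 had 3 probe sets, of which 2 were tested, and these disagreed. On 1435176_a_at the controls had 163.5 and 161.8. The arrays of day 3 were above them under both treatments (240.4 and 221.5 on estradiol, 231.6 and 180.2 on genistein), those of genistein day 2 were below (108.7 and 130.1), and the remaining arrays lay between 135.8 and 210.8. Over the mean of days genistein stood -0.07 ± 0.164 from control (limma, adjusted p = 0.913) and the treatments differed by 0.23 ± 0.116 (limma, adjusted p = 0.336). On 1422537_a_at genistein stood 0.79 ± 0.296 above control (limma, unadjusted p = 0.0192, adjusted p = 0.379), where the controls themselves were 116.4 and 36. Without control replicate 1 this became 1.46 and passed (limma, adjusted p = 0.0218), and without control replicate 2 it became 0.11, so its size was set by which control array was used. The treatments differed there by 0.0034 ± 0.210 (limma, adjusted p = 0.995). The third probe set was too dim to be tested, with signals from 28.4 to 49.06.

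Sox13 varied least of the 12 tested probe sets (SD of 0.172 in log2 over the 14 arrays, against 0.194 for Id3 and 1.09 for Cd7). Its signals were 71.4 and 80.9 in controls, 73.58 to 100.1 on estradiol and 58.5 to 95.7 on genistein, and the 3 ranges overlapped. Genistein stood 0.03 ± 0.170 from control (limma, adjusted p = 0.967, 95% interval -0.34 to 0.39) and the treatments differed by 0.13 ± 0.120 (limma, adjusted p = 0.617, 95% interval -0.13 to 0.39).

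**Figure D3:**
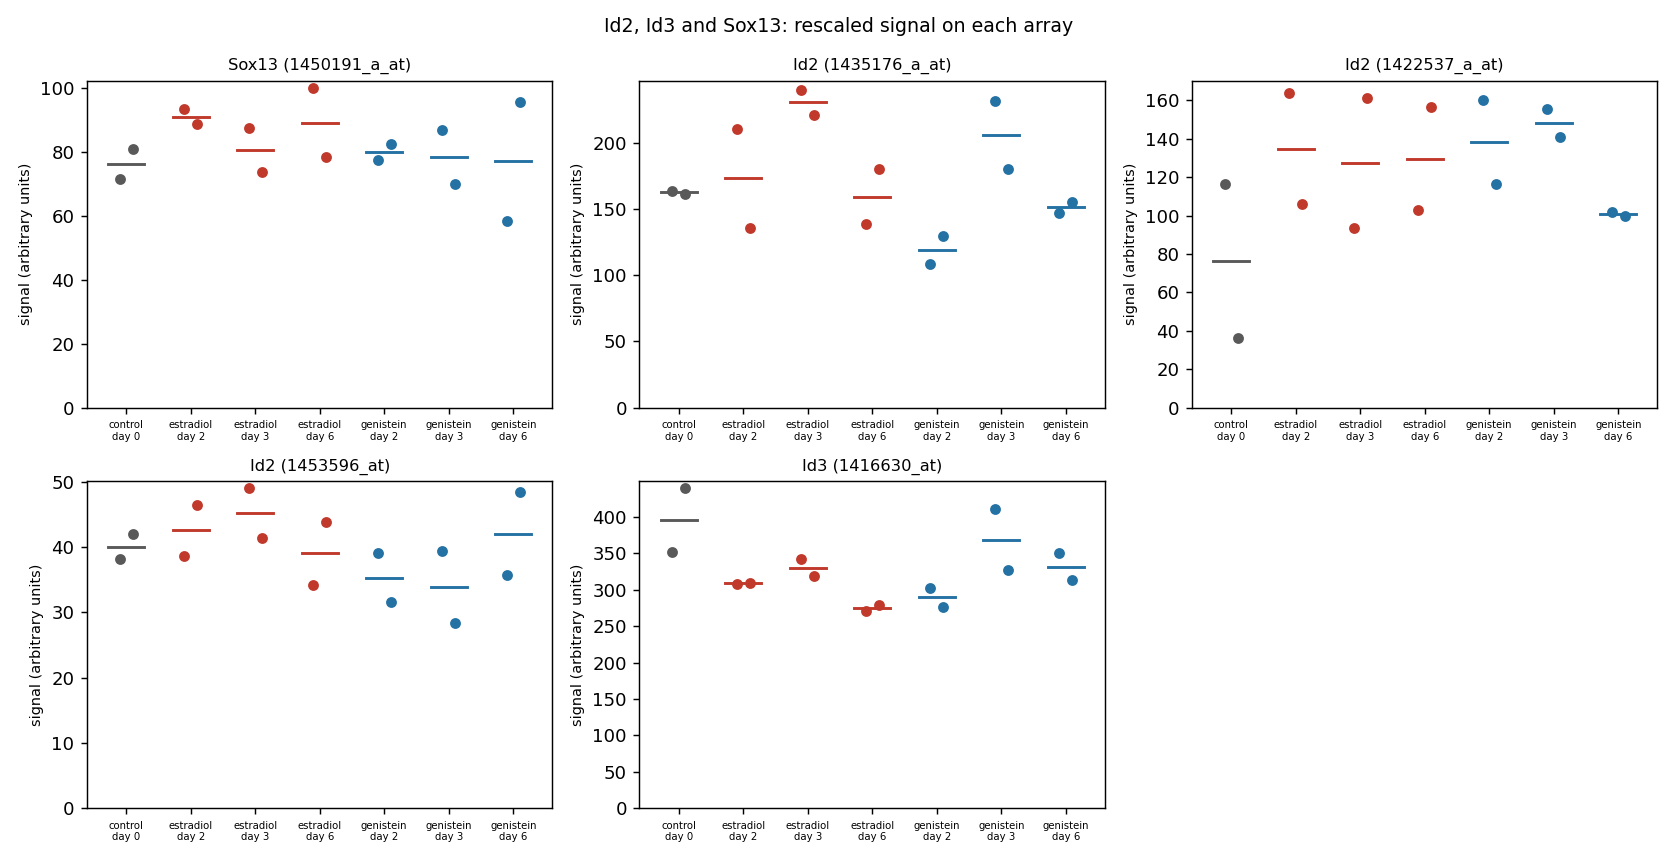
Rescaled signal (arbitrary units, linear axis from 0) of Sox13, the 3 probe sets of Id2 and that of Id3 on each array, with a point per array and a bar at the mean of each group's 2 arrays (grey control, red estradiol, blue genistein). The estradiol points of Id3, from 271 to 342.1, all lie below the controls at 352 and 440.6, and those of Sox13 and Id2 overlap the other groups.

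Without Cd7 and Trgv1, 10 tested probe sets of 7 genes could be counted. Genistein against control gave 0 of 10 by limma at an adjusted p under 0.05 over the mean of days, where 0.0368% of all 13575 tested probe sets passed. At an unadjusted p under 0.05 it gave 1 of 10, beside 11.1% of all. Single days gave 0 of 10 as well, against 0.0147% of all at day 2 and 0.00737% at each of days 3 and 6. Unadjusted, they gave 2, 1 and 1 of 10 by limma, beside 11.8%, 5.73% and 10.4% of all. The median difference of the 10 was 0.08, beside 0.01 over all tested probe sets.

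Estradiol against genistein gave 1 of 10 over the mean of days (Trgv4 1450521_a_at) by limma at an adjusted p under 0.05, against 1.41% of all, and 5 of 10 unadjusted, beside 17.1% of all. It gave 0 of 10 at day 2 against 0.081% (5 of 10 unadjusted by limma, beside 6.72%) and 0 of 10 at day 3 against 0.0147% (1 of 10 unadjusted, beside 6.7%). At day 6 it gave 1 of 10, the same Trgv4 probe set, against 0.265% (3 of 10 unadjusted by limma, beside 13.4%). The median of the 10 was 0.30, beside -0.0016 over all, and 9 of 10 were positive, beside 49.6% of all. Since the 10 belong to 7 genes, some genes count more than once. The 7 were also chosen together with Cd7 and Trgv1, with earlier results of these data known. The called Trgv4 probe set may share signal with Trgv1. These counts between the treatments are therefore a description, and nothing is read from them about the genes as a set. The change from day 2 to day 6 gave 0 of 10 on estradiol and 0 of 10 on genistein, and the interaction of treatment and day gave 0 of 10, where 0% of all probe sets passed in any of these 3. Unadjusted, limma also gave 0 of 10 in each, beside 9.5%, 6.3% and 6.73% of all.

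For estradiol against control, 3 of 12 passed over the mean of days against 0.604% of all, 1 at day 2 against 0.0884%, 0 at day 3 against 0.0663% and 3 at day 6 against 0.656%, and nothing is read from these counts because the choice of genes used this contrast. In the same way 6 of 12 probe sets (Trgv1, Trgv4 1450521_a_at, Cd7, both of Il2rb, and Nkg7) had every estradiol array above both controls, as did 8.04% of all, and 1 (Id3) had every one below, as did 6.96%. For genistein the corresponding counts were 0 and 0 of 12, against 4.49% and 4.19%. Every estradiol array lay above every genistein array for 2 of 12, against 0.965% of all, and below for 0, against 0.413%. The 2 were Trgv4 1450521_a_at and Trgv1, and that of Trgv1 is a description. The comparisons with control share the same 2 control arrays, so their values are set side by side and not against each other.

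**Figure D4:**
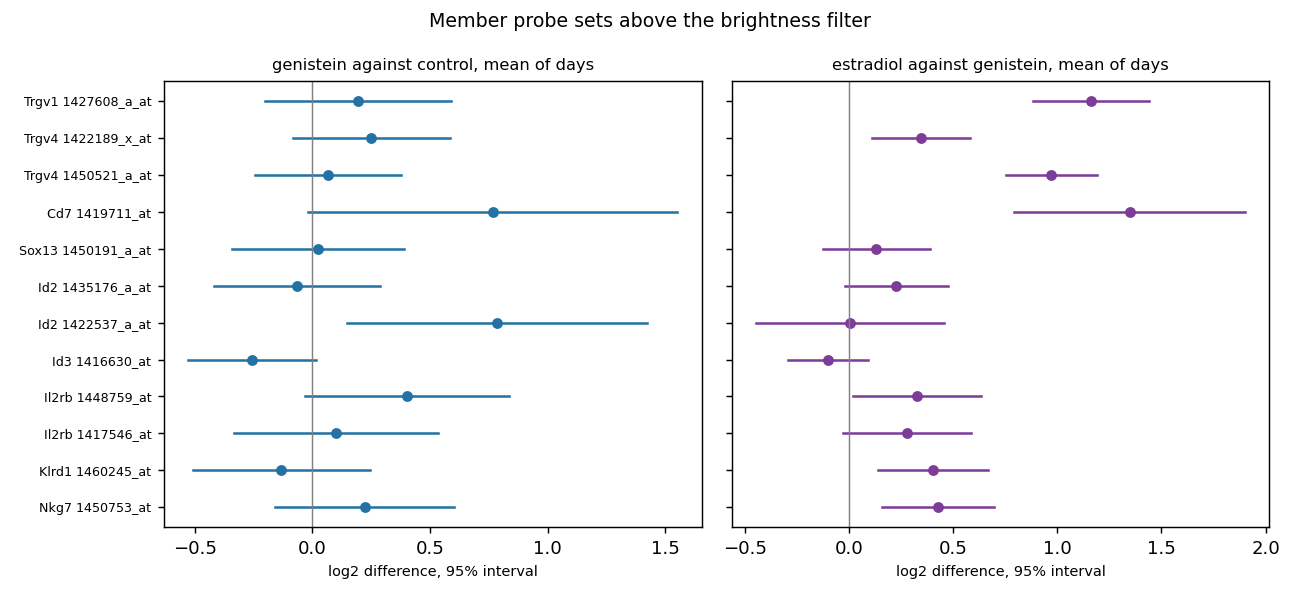
Log2 difference and 95% interval of limma for the 12 tested probe sets over the mean of days, genistein minus control on the left and estradiol minus genistein on the right, each on its own linear axis with a line at 0. On the right Trgv1 (1.16), Trgv4 1450521_a_at (0.97) and Cd7 (1.35) lie farthest from 0, and the points of Trgv1 and Cd7 in both panels are a description because these genes were chosen on estradiol and control arrays.

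Other genes of the same pathways were read from lists. Of 28 further gamma-delta receptor segments and regulators, 10 were measured and 6 were bright enough to be tested, and 0 of 6 passed in either comparison (0 also at an unadjusted p under 0.05 by limma). None of the 14 other segments listed, including the constant and delta segments, had a probe set of its own in the annotation used here, so the gamma-delta receptor is represented by Trgv1 and Trgv4 alone. Relb, a subunit of the alternative NF-kappa-B pathway, differed by 0.26 ± 0.128 and Gata3, a factor of early T cells, by 0.10 ± 0.122 between the treatments (limma, adjusted p = 0.317 and 0.720). Lef1, an effector of Wnt signalling, stood 0.53 ± 0.311 and Relb 0.20 ± 0.181 from control on genistein (limma, adjusted p = 0.533 and 0.708).

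Of 36 genes of natural killer and innate-like effector cells, 32 were measured and 17 tested, with 0 calls in either comparison (limma, 3 of 17 unadjusted for estradiol against genistein, beside 17.1% of all probe sets, and 4 of 17 for genistein against control, beside 11.1%). The median between the treatments was 0.021, beside -0.0016 over all probe sets. Fcer1g, the signalling chain of Fc and natural killer receptors, differed by 0.48 ± 0.163 between the treatments, while Gzmk, a granzyme, went the other way by -0.39 ± 0.143 (limma, adjusted p = 0.149 and 0.183). Both stood above control on genistein without passing, Gzmk by 0.58 ± 0.202 and Fcer1g by 0.51 ± 0.230 (limma, adjusted p = 0.348 and 0.442).

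Among 22 E proteins, Id family members and E protein targets, 20 were tested and 0 passed (limma, 7 of 20 unadjusted for estradiol against genistein, beside 17.1% of all probe sets, and 3 of 20 for genistein against control, beside 11.1%). Their median between the treatments was 0.17. Ptcra, the chain that pairs with the beta chain in early thymocytes, had 265.8 to 275.7 in controls, 285.1 to 388.19 on estradiol and 208.1 to 304.6 on genistein, a difference of 0.40 ± 0.101 between treatments (limma, adjusted p = 0.0735). Socs3, a feedback inhibitor of cytokine signals, differed by as much (0.40 ± 0.132, limma, adjusted p = 0.143). On genistein Id4 stood 0.75 ± 0.224 above control and the recombinase gene Rag2 -0.45 ± 0.159 from it (limma, adjusted p = 0.331 and 0.348).

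Of 19 genes of interleukin 2, 7 and 15 signalling, the pathway of Il2rb, 17 were tested. At an unadjusted p under 0.05 limma gave 3 of 17 for estradiol against genistein, beside 17.1% of all probe sets. For genistein against control it gave 3 of 17, beside 11.1%. At an adjusted p under 0.05, 1 of 17 was higher on estradiol than on genistein, where 1.41% of all passed in either direction. This was Il7, the stromal cytokine that gamma-delta precursors need, with signals of 99.0 to 145.6 in controls, 91.6 to 175.8 on estradiol and 74.6 to 111.6 on genistein. Its difference was 0.53 ± 0.112 (limma, adjusted p = 0.0350), -0.0045 at day 2, 0.60 at day 3 and 1.01 at day 6, and its ranges overlapped. The call was lost in 16 of 27 alternative analyses (limma, adjusted p up to 0.220). These included leaving out any estradiol array but day 2 replicate 2, or any genistein array but day 3 replicate 1 and day 6 replicate 2. On genistein Pim1, a survival kinase, stood 0.72 ± 0.209 and Il7r, the receptor of Il7, 0.52 ± 0.126 above control (limma, adjusted p = 0.325 and 0.257), without passing.

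Of the alpha-beta receptor and CD3 list, the counterpart lineage, 15 of 20 genes were tested. At an unadjusted p under 0.05 limma gave 5 of 15 for estradiol against genistein, beside 17.1% of all probe sets. For genistein against control it gave 2 of 15, beside 11.1%. At an adjusted p under 0.05, 1 of 15 was lower on estradiol than on genistein, where 1.41% of all passed in either direction. Cd8b1, the beta chain of the CD8 coreceptor, had signals of 2014 to 2125 in controls, 1668 to 2077 on estradiol and 2181 to 2372 on genistein. Every estradiol array thus lay below every genistein array, as for 0.413% of all tested probe sets. The gene was named because it passed in this same comparison. The difference was -0.28 ± 0.0594 (limma, adjusted p = 0.0345), and it too was lost in 15 of 27 alternatives (limma, adjusted p up to 0.248). These included leaving out any array of estradiol days 3 and 6 or genistein days 2 and 3, or genistein day 6 replicate 1, and on the values as deposited the sign turned (0.17). The median of the 15 between the treatments was -0.12. On genistein Cd3g, a chain of CD3, stood 0.37 ± 0.168 above control and the beta segment Trbv13-2 -0.295 ± 0.125 from it (limma, adjusted p = 0.438 and 0.415).

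Among genes with a single symbol, the 3 whose pattern over the 14 arrays was most like that of Trgv1, by root mean square difference of centred log2 values among 8205 genes, were Cmah, a sialic acid hydroxylase (0.239), Igfbp7, a secreted binding protein (0.286), and Alcam, an adhesion molecule (0.296), where the median gene had 0.686. Cmah had 59.1 to 66.0 in controls, 167.4 and 170 at estradiol day 6 and 49.7 to 94.6 at genistein day 6. For Cd7 they were Khdc1a (0.599), the fatty acid desaturase Scd1 (0.609) and the carbonyl reductase Cbr2 (0.631), where the median gene had 1.07. Khdc1a had 29.2 on both controls, 83.6 to 113.4 at estradiol day 6, 19.4 to 25 at genistein day 2 and 34.4 to 58.2 at genistein day 6.

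Markers of the cells that could carry these genes were summed on each array. Of 8 gamma-delta markers only Blk and Il17a were measured, with sums of 116.7 to 132.7 in controls, 107 to 157 on estradiol and 99.3 to 180.9 on genistein, which overlapped, so a gamma-delta population could not be read from its defining markers. Of 8 natural killer markers 6 were measured, and their sums, mostly the granzyme Gzma, overlapped too (943 to 1166, 928 to 1270 and 825 to 1142). Double-positive thymocytes, the bulk of the organ and read by 8 of 10 markers, had sums of 11525 to 11935, 10314 to 12608 and 11601 to 13220. Sums of other lists were higher on every estradiol array than on both controls. They were macrophages (6 of 6 markers, 1253 to 1289 in controls, 1774 to 2079 on estradiol, 1423 to 1850 on genistein), thymic epithelium (5 of 6, 4597 to 4849, 6000 to 6937 and 5329 to 6024), B cells (4 of 5, 2049 to 2164, 2344 to 2912 and 2005 to 2926), dendritic cells (4 of 5, 229.6 to 269.6, 277 to 352 and 220 to 294) and regulatory T cells (3 of 3, 101 to 102.6, 109.7 to 154.4 and 65.9 to 143.2). For macrophages and thymic epithelium every genistein array lay above both controls as well. Of all single tested probe sets, 8.04% had every estradiol array above both controls, and the share for sums was not counted. The B cell sum was mostly Ighm, at 1738 to 1853 in controls and 2024 to 2622 on estradiol, while Cd79a, Cd79b and Ms4a1 overlapped the controls. Over the mean of days, 3 of 4 dendritic cell and 5 of 6 macrophage markers stood higher on estradiol than in controls. All 5 measured epithelial markers did. Of the regulatory T cell markers only Ctla4 was bright enough to be tested, Foxp3 averaged 37.4 and Ikzf2 3.46. The sums of mature T cells (3 of 4) and red blood cells (2 of 4) overlapped with the controls. No measured marker was at a signal of 0 on any array, though besides Ikzf2 Klrc1 of the natural killer list was close to it, at a mean of 7.38. The part of these cells in the signals of Trgv1, Trgv4, Cd7 and Nkg7 was not tested.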

How the data were processed

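Thymus RNA of 14 pools was measured on Affymetrix arrays, and the deposited signal intensity values were made with MAS5 5.0 per the submitters' processing notes. Their 2%-trimmed mean was 150.04 on 11 arrays and higher on 3, for a reason not given in the sources used here, and all arrays were rescaled to 150.04. Of 22690 probe sets 64 controls were removed. After log2 of signal plus 16, the dimmest 40% by mean log2 (under 5.92, a signal of 44.5) were dropped, which left 13575. The array annotation gave 1 symbol for 20393 probe sets (20364 updated to a current name), several for 691 and none for 1606. limma 3.58.1 (R 4.3.3) fitted the mean of each of 7 groups with a shared spread (7 residual degrees of freedom, 13.74 moderated), eBayes with trend, contrasts, and Benjamini-Hochberg adjustment over all tested probe sets in each comparison. Calls needed an adjusted p below 0.05. SE are limma's, SD are between arrays, and 2 arrays a group limit the precision. The fit was tested on simulated data.

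The genes, lists and markers were chosen with earlier results of these data known. All 9 genes were named through every probe set of their own. From each list the genes that passed were named, up to 4 by p, otherwise the 2 largest differences in either tested comparison over the mean of days. The genes most alike to Cd7 and Trgv1 were the 3 with the smallest root mean square difference. Alternatives were other pseudocounts (1 and 64), filters (none and 60%), normalizations (as deposited, quantile, medians), no trend, the replicate number as a block, fewer groups, the brighter arrays left out or as a term, the Gapdh ratio as a covariate, and each array left out in turn. Figures were drawn with matplotlib 3.10.9.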

Additional observations from a re-analysis of the deposited data

Results flagged for a closer look

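Id3 was flagged for the order of its arrays alone. Both estradiol arrays of day 6 (271 and 279.3) lay below those of day 2 (308.6 and 309.8). Both genistein arrays of day 6 (350.2 and 313.6) lay above those of day 2 (303.1 and 275.8). The share of all probe sets with such opposite orders was not counted. The difference between the changes from day 2 to day 6 was -0.35 ± 0.219 (log2, limma, unadjusted p = 0.136, adjusted p = 0.779) and did not pass.

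The probe set 1422188_s_at, annotated to Trgv4 and Trgv2 together, was outside the choice of genes. It was flagged for a signal above control on every estradiol array, as 8.04% of all tested probe sets had. Its lowest estradiol signal was 1149, against 724.4 and 665.2 in the controls and 482.9 to 1069 on genistein. Estradiol stood 0.85 ± 0.154 above genistein over the mean of days, given without a test because the flag used the estradiol arrays. This difference became 0.80 without the 3 brighter arrays and 0.61 with their brightness as a term. The probe set may share sequence with the Trgv4 probe sets described above.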

How the results depend on the processing

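Of the 12 tested probe sets, 3 were called for estradiol against control over the mean of days. This count was 10 on the values as deposited, 0 with the deposited brightness as a term of the model, and 0 to 3 with 1 array left out, 0 being without control replicate 2. For estradiol against genistein the 3 (Trgv1 and Cd7 among them, which carry no test) became 11 as deposited and 0 with the brightness term, and 2 to 3 with 1 array left out. Without Cd7 and Trgv1 the 1 of 10 became 9 as deposited and 0 with the brightness term, and stayed 1 with any 1 array left out. For genistein against control the 0 became 1 without control replicate 1 (Id2 1422537_a_at), a range of 0 to 1, with or without Cd7 and Trgv1. The counts of 0 for the changes from day 2 to day 6 and for the interaction were 0 in every alternative that could be fitted. On the values as deposited, where all probe sets shifted by 0.43 against control and 0.42 against genistein, Id3 turned to 0.34 between the treatments, Cd8b1 to 0.17, and at day 3 Trgv4 1422189_x_at to 0.89, Id2 1422537_a_at to 0.75 and Id3 to 0.90. The share of all tested probe sets called ran from 0.0295% to 31.6% for estradiol against control, from 0.236% to 68.1% between the treatments and from 0% to 2.47% for genistein against control.

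With the replicate block the counts stayed at 3, 0 and 3 of 12, Il7 lost its call (limma, adjusted p = 0.0526) and Trgv4 1450521_a_at gained one at day 2 (0.99, limma, adjusted p = 0.0455). Same-numbered arrays did not deviate together (21 pairs of groups, correlations from -0.256 to 0.351, 5 above 0.1), so the numbers were not taken as pairs. Without the 3 brighter arrays no estradiol day 3 array was left, and the mean was taken over days 2 and 6. With 1 array left out its group had a lone array, assumed to vary like the others. Genes near the pseudocount, such as Cd7, have no exact fold.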
